A study of Mus musculus with 12 samples.

Results

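The mRNA of 10 genes known from the epididymis, the duct in which sperm mature, was measured in epididymal white adipose tissue (eWAT) of C57BL/6J mice. The genes were Lcn5, Lcn8, Lcn9, Gpx5, Defb20, Adam7, Crisp1, Cd52, Ces5a and Npc2. They were found by symbol through their mouse Ensembl identifiers, were all present, and made up 10 of the 23474 genes in the expression table. They had been chosen because of their levels in some of these libraries, so their levels are given as a description and carry no test. Each of the 12 libraries came from the eWAT of a single male mouse, 17 weeks old, after 12 weeks on its diet. The normal diet (ND), high-fat diet (HFD), green tea (GT) and TJ groups had 3 libraries each, drawn from groups of 10 mice. GT mice ate the HFD to which an ethanol extract of green tea had been added at 0.25% of its weight. TJ mice ate the HFD with Taeeumjowuitang (TJ), a Korean herbal medicine of plant extracts, spelled Taeeumjowitang in the sample labels, at 3% of its weight. Expression was given as FPKM, fragments scaled to transcript length and to the number of mapped fragments, which allows levels of different genes to be set side by side.

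The epididymis lies directly against the fat pad that is named after it, and its duct leads from the testis through the caput and corpus to the cauda. Its epithelium secretes proteins into the lumen that coat or protect sperm, and each stretch of the duct secretes its own set under the control of androgens. Lipocalins such as Lcn5, Lcn8 and Lcn9 carry small hydrophobic molecules, and Gpx5 is a secreted glutathione peroxidase without selenium. Defb20 is a beta-defensin, and Adam7 is a membrane protein of the ADAM family without protease activity that is passed to sperm. Crisp1 is a cysteine-rich protein that binds to the sperm surface, Ces5a is a secreted carboxylesterase, and Cd52 is a small glycoprotein of the sperm coat that leukocytes also make. Npc2 binds cholesterol in the lysosomes of all cells and is abundant in epididymal fluid. Lcn8, Lcn9, Gpx5 and Defb20 are treated here as the proximal-type genes, those of the upper part of the duct.

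Sequencing depth, estimated from the smallest steps between FPKM values, was roughly 9.9M to 19.3M fragments per library and lowest in ND replicate 1. The table gives no counts, so no counting interval is printed, and the errors are the spread between mice. A pair of libraries stood apart from the rest. In ND replicate 1 the summed level of 10 adipocyte genes was 4322 FPKM, against 20329 to 61751 FPKM in the other 11 libraries. There 20 germ cell genes summed to 105976 FPKM, or 10.6% of the FPKM of all genes. The FPKM of all genes summed to 1002765 in ND replicate 1 and to 527904 to 725245 in the other libraries. Values of ND replicate 1 therefore stand on a different total. HFD replicate 2 had adipocyte genes at 21720 FPKM, between the 20329 and 22348 FPKM of HFD replicates 3 and 1, together with high levels of Crisp1. The comparisons that rest on either library are therefore given with and without it. In bulk tissue, fewer cells of a type and less RNA per cell cannot be told apart.

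The lipocalin members lie close together. On chromosome 2 of GRCm38, Lcn8 (ENSMUSG00000036449) spans 25653120 to 25656217 and Lcn5 (ENSMUSG00000026937) spans 25657952 to 25661977 on the same strand, with 1734 bases between them. Lcn9 (ENSMUSG00000023210, 25823153 to 25825537) lies in the same run of lipocalin genes, and Defb20 (ENSMUSG00000049560, 152477063 to 152479934) lies far from it. Gpx5 (ENSMUSG00000004344) is on chromosome 13 from 21286429 to 21292731. Adam7 (ENSMUSG00000022056) is on chromosome 14 from 68497336 to 68533741, Crisp1 (ENSMUSG00000025431) on chromosome 17 from 40293758 to 40319207, and Ces5a (ENSMUSG00000058019) on chromosome 8 from 93499064 to 93535830. Npc2 (ENSMUSG00000021242) is on chromosome 12 from 84754562 to 84773152. Cd52 (ENSMUSG00000000682) is on chromosome 4 from 134082448 to 134095082, and its span overlaps Crybg2 on the opposite strand, whose fragments an unstranded count cannot tell from its own. No gene overlapped the other 9 members.

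RefSeq promoter windows of GRCm38.p6, from 250 bases before to 50 bases after the start of the gene, were found for 8 of the 10 members. The letters AGAACA, or TGTTCT on the other strand, are the core to which the androgen receptor and related steroid receptors bind. They were found in the windows of 4 members, Lcn9, Defb20, Crisp1 and Ces5a, and in those of Lcn8, Lcn5, Gpx5 and Npc2 they were not. Of all 32851 windows, 6233 (19%) held these letters, as did 15 of the 31 windows (48.4%) of the list of other epididymis genes described below. The 4 windows with a match are shown because they come from genes of both patterns reported here, Lcn9 and Defb20 with the proximal-type genes and Crisp1 and Ces5a with the others. They are written 5′ to 3′ on the strand of the gene, with the matching letters in capitals.
Lcn9 (chr2:25822903-25823202, plus strand): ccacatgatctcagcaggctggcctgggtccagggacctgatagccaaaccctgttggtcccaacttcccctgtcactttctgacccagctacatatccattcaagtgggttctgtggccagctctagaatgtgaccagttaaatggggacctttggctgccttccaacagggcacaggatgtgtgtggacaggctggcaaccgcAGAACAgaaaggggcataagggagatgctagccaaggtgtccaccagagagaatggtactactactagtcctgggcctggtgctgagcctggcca
Defb20 (chr2:152476813-152477112, plus strand): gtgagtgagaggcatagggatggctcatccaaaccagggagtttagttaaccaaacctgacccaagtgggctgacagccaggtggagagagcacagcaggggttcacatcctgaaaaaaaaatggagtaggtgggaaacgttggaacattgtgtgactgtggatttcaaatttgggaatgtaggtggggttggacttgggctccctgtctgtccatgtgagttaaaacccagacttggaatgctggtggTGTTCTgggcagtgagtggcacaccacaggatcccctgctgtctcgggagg
Crisp1 (chr17:40319158-40319457, minus strand): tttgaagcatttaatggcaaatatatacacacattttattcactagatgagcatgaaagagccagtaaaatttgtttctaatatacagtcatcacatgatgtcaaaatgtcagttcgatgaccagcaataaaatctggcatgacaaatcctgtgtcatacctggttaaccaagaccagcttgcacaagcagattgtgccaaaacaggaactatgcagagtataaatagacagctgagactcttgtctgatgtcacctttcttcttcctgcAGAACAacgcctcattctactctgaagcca
Ces5a (chr8:93535791-93536090, minus strand): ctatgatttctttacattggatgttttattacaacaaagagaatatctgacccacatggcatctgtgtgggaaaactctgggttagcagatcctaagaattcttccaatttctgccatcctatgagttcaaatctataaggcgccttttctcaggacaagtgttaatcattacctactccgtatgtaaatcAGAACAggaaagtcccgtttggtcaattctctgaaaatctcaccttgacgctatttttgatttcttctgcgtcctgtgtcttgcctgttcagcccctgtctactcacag
The match begins at base 206 of the window of Lcn9, base 250 of Defb20, base 271 of Crisp1 and base 192 of Ces5a. A match is a description of the letters and not evidence of a bound site.

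The proximal-type genes were abundant in ND replicate 1 and nowhere else. Lcn8 measured 8812 FPKM in ND replicate 1, 1.5 FPKM in ND replicate 2 and 4.91 FPKM in ND replicate 3. It was listed at 0 in all HFD and GT libraries and in TJ replicates 1 and 2, and at 0.947 FPKM in TJ replicate 3. In ND replicate 1 it ranked 7 among all genes by FPKM. Gpx5 ranked 10 there, with 6364 FPKM, and followed the same order, with 4.14 and 4.91 FPKM in ND replicates 2 and 3. Its values outside the ND group were 0.268 FPKM in HFD replicate 2, 0.116 FPKM in TJ replicate 2 and 0.637 FPKM in TJ replicate 3, and 0 in the other 6 libraries. The highest library thus exceeded the next by 1794-fold for Lcn8 and 1297-fold for Gpx5.

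Defb20 and Lcn9 behaved alike at lower levels. Defb20 measured 2664, 0.368 and 1.98 FPKM in ND replicates 1, 2 and 3. Outside the ND group it reached 0.403 FPKM in HFD replicate 2 and 0.113 FPKM in TJ replicate 3, and it was listed at 0 in the other 7 libraries. Lcn9 measured 1235, 0.834 and 0.563 FPKM in the ND group, 0.0897 FPKM in TJ replicate 2 and 0.506 FPKM in TJ replicate 3, and was listed at 0 elsewhere. ND replicate 1 lay 1342-fold above the next library for Defb20 and 1481-fold for Lcn9. All 4 genes reached 1 FPKM together in ND replicate 1 alone, and all 4 reached 0.1 FPKM in 4 libraries, ND replicates 1 to 3 and TJ replicate 3. Summed, the 4 genes came to 19075 FPKM in ND replicate 1 and to at most 12.4 FPKM in any other library.

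**Figure D1:**
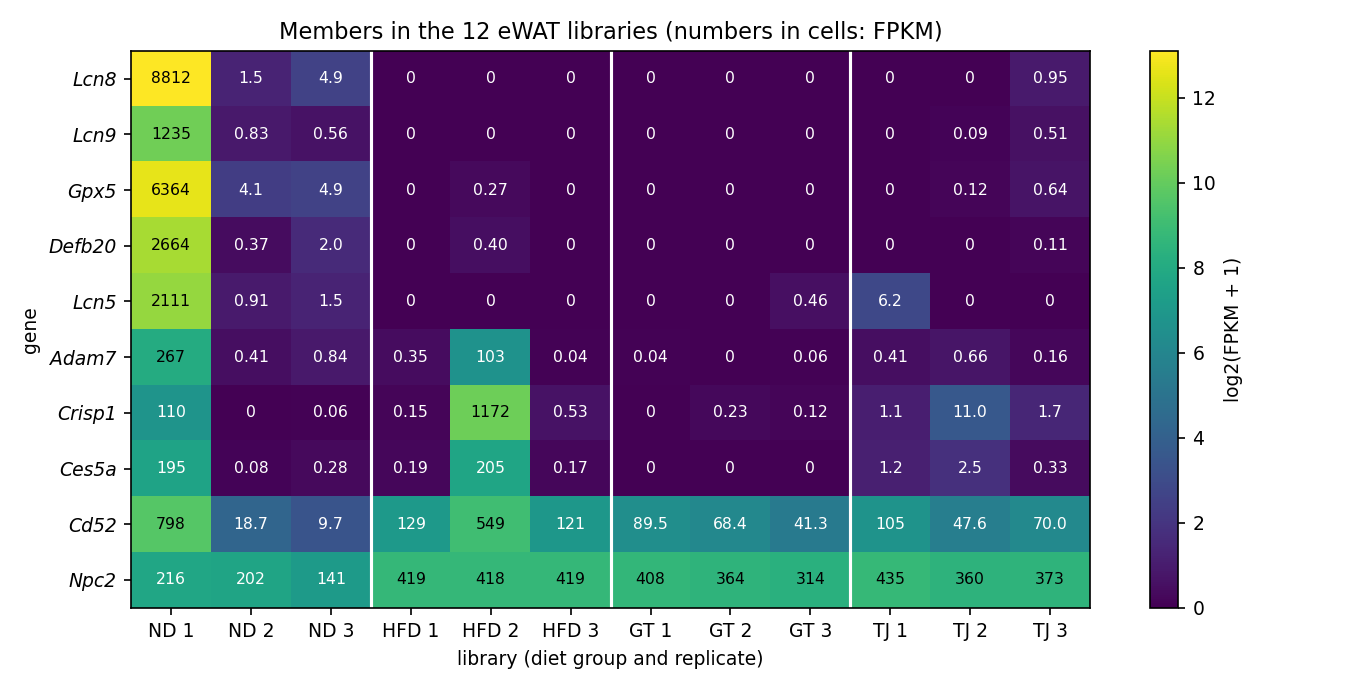
FPKM of the 10 members (rows) in each of the 12 eWAT libraries (columns, 3 per diet group), with the value printed in each cell and the colour giving log2(FPKM + 1). Lcn8, Lcn9, Gpx5, Defb20 and Lcn5 are bright only in ND replicate 1, Adam7, Crisp1 and Ces5a are bright in ND replicate 1 and HFD replicate 2, and Cd52 and Npc2 are present in all 12 libraries.

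Lcn5, which binds retinoic acid in the epididymal lumen, followed the proximal-type genes in the ND and HFD groups and departed from them in the GT and TJ groups. It measured 2111 FPKM in ND replicate 1, 0.912 and 1.48 FPKM in ND replicates 2 and 3, and 0 in all HFD libraries. The next highest library was TJ replicate 1, with 6.18 FPKM, where Lcn8, Lcn9, Gpx5 and Defb20 were all listed at 0. These 4 genes were also at 0 in GT replicate 3, which had 0.459 FPKM of Lcn5. In TJ replicate 3, which held low levels of those 4 genes, Lcn5 was listed at 0. Its ratio to its neighbour Lcn8 was 0.240 in ND replicate 1 and 0.302 in ND replicate 3, the libraries in which both reached 1 FPKM.

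Adam7, Crisp1 and Ces5a were high in HFD replicate 2 as well as in ND replicate 1. Crisp1 measured 1172 FPKM in HFD replicate 2, where it ranked 38 among all genes, and 110 FPKM in ND replicate 1. Its other HFD values were 0.149 and 0.531 FPKM, and its other ND values were 0 and 0.0612 FPKM. HFD replicate 2 thus exceeded ND replicate 1 by 10.7-fold for this gene, whereas the proximal-type genes were at 0.403 FPKM or below in HFD replicate 2. Ces5a was about equal in the 2 libraries, with 205 FPKM in HFD replicate 2 and 195 FPKM in ND replicate 1. It was between 0 and 2.52 FPKM in the other 10 libraries and listed at 0 in all 3 GT libraries. Adam7 leaned to the other side, with 267 FPKM in ND replicate 1 and 103 FPKM in HFD replicate 2, and did not exceed 0.838 FPKM elsewhere.

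The balance between these 3 genes therefore differed between the libraries that held them. Crisp1 was 11.4 times Adam7 and 5.70 times Ces5a in HFD replicate 2, and 0.412 times Adam7 and 0.565 times Ces5a in ND replicate 1. No replicate of either library was sequenced, so these ratios describe single mice. TJ replicate 2 was next for Crisp1 with 11.0 FPKM and for Ces5a with 2.52 FPKM, and held 0.664 FPKM of Adam7, below the 0.838 FPKM of ND replicate 3. Crisp1 was there 16.6 times Adam7 and 4.39 times Ces5a, which is nearer to HFD replicate 2 than to ND replicate 1. In TJ replicate 1 it was 0.908 times Ces5a, which is nearer to ND replicate 1. At 1.13 FPKM it lay above the 0.406 FPKM of Adam7 there, as in HFD replicate 2. In TJ replicate 3 Crisp1 at 1.68 FPKM lay above Adam7 at 0.162 FPKM and Ces5a at 0.327 FPKM, also as in HFD replicate 2. Crisp1, Adam7 and Ces5a rest on about 27, 24 and 43 fragments in TJ replicate 1 and 41, 10 and 11 in TJ replicate 3. All 3 TJ values of Crisp1 lay above 1 FPKM. The GT libraries held 0, 0.234 and 0.118 FPKM.

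Across the 10 members, ND replicate 1 was the highest library for 7 and HFD replicate 2 for 2. Of all 16210 genes with 1 FPKM or more in some library, the corresponding shares were 36.5% and 7.99%. ND replicate 1 was at least 10 times every other library for 5 members, beside 6.37% of all genes, and HFD replicate 2 for Crisp1 alone, beside 0.0432%. Set against the 10 libraries other than this pair, ND replicate 1 was at least 10 times higher for 7 members (6.86% of all genes) and HFD replicate 2 for 3 (0.518%). Adam7 and Ces5a passed in both libraries (0.426%). Since these levels chose the members, nothing is read from these shares.

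**Figure D2:**
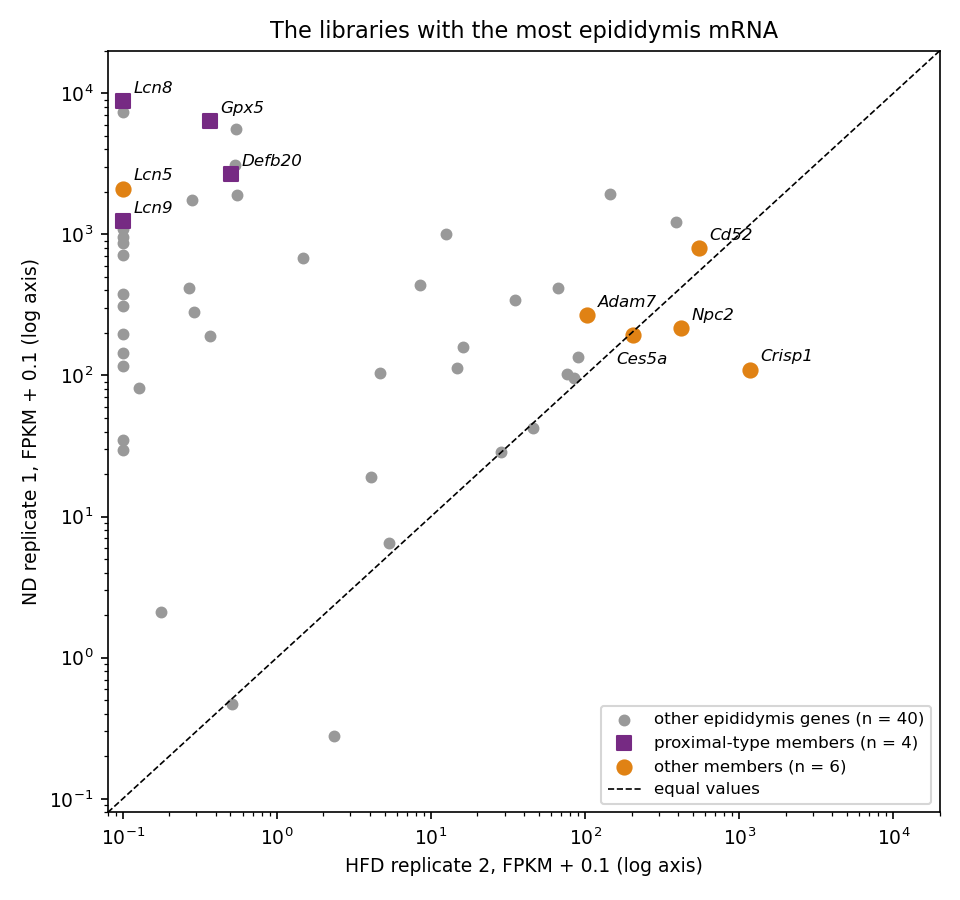
FPKM + 0.1 in ND replicate 1 (vertical log axis) against HFD replicate 2 (horizontal log axis) for the 4 proximal-type members, the 6 other members and 40 further epididymis genes, with the line of equal values dashed. The proximal-type members and Lcn5 lie at the upper left, Adam7, Ces5a and Cd52 lie near the line, and Crisp1 lies below it with 1172 FPKM in HFD replicate 2 against 110 FPKM in ND replicate 1.

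The lower levels in the other ND libraries kept some of the proportions of ND replicate 1. ND replicate 3 stood 1794-fold, 1297-fold, 1342-fold and 1423-fold below ND replicate 1 for Lcn8, Gpx5, Defb20 and Lcn5, and 2195-fold below it for Lcn9. For Adam7 the ratio was 318. ND replicate 2 was less even, with 1481-fold below ND replicate 1 for Lcn9, 7248-fold for Defb20 and 655-fold for Adam7. These values rest on few fragments, about 46 for Lcn8 and 20 for Defb20 in ND replicate 3 and about 16 and 4 in ND replicate 2, as estimated from transcript length and depth. The values of Lcn8 and Gpx5 in TJ replicate 3 correspond to about 11 and 18 fragments.

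Cd52 and Npc2 were present in all 12 libraries, which goes against a description of the 10 genes as present in some libraries only. Cd52 measured 798 FPKM in ND replicate 1 and 549 FPKM in HFD replicate 2, 6.17-fold and 4.24-fold above the highest of the other 10 libraries. Without these libraries it was at 18.7 and 9.74 FPKM in the ND group, 129 and 121 FPKM in the HFD group, 41.3 to 89.5 FPKM in the GT group and 47.6 to 105 FPKM in the TJ group. Macrophages also make Cd52. The summed level of 12 macrophage genes was 520 to 678 FPKM in ND replicates 2 and 3 and 6655 to 7051 FPKM in HFD replicates 1 and 3. Per 100 FPKM of these macrophage genes, Cd52 came to between 1.69 and 4.88 FPKM in the 10 other libraries. It came to 11.0 FPKM in HFD replicate 2 and to 821 FPKM in ND replicate 1, where the macrophage genes summed to only 97.2 FPKM. Lymphocyte markers were low, at 8.01 to 17.8 FPKM summed over 10 T cell genes and 2.5 to 16.1 FPKM over 6 B cell genes, and their part in the level of Cd52 was not tested.

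Npc2 showed no rise in either library. It measured 216, 202 and 141 FPKM in the ND group and 419, 418 and 419 FPKM in the HFD group, so HFD replicate 2 could not be told from the other HFD libraries. The GT libraries had 408, 364 and 314 FPKM and the TJ libraries 435, 360 and 373 FPKM. In ND replicate 1 Npc2 was at the level of the other ND libraries, whereas most other lysosomal genes were lower there, with Hexa as an exception. The sum of 14 such genes, among them Lamp1 and the cathepsins Ctsb and Ctsd, was 1109 FPKM in that library and 2961 to 13118 FPKM in the rest. Npc2 was 19.5 FPKM per 100 FPKM of these genes there, against 3.19 to 8.47 in the 10 libraries without HFD replicate 2 and 4.19 in HFD replicate 2.

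**Figure D3:**
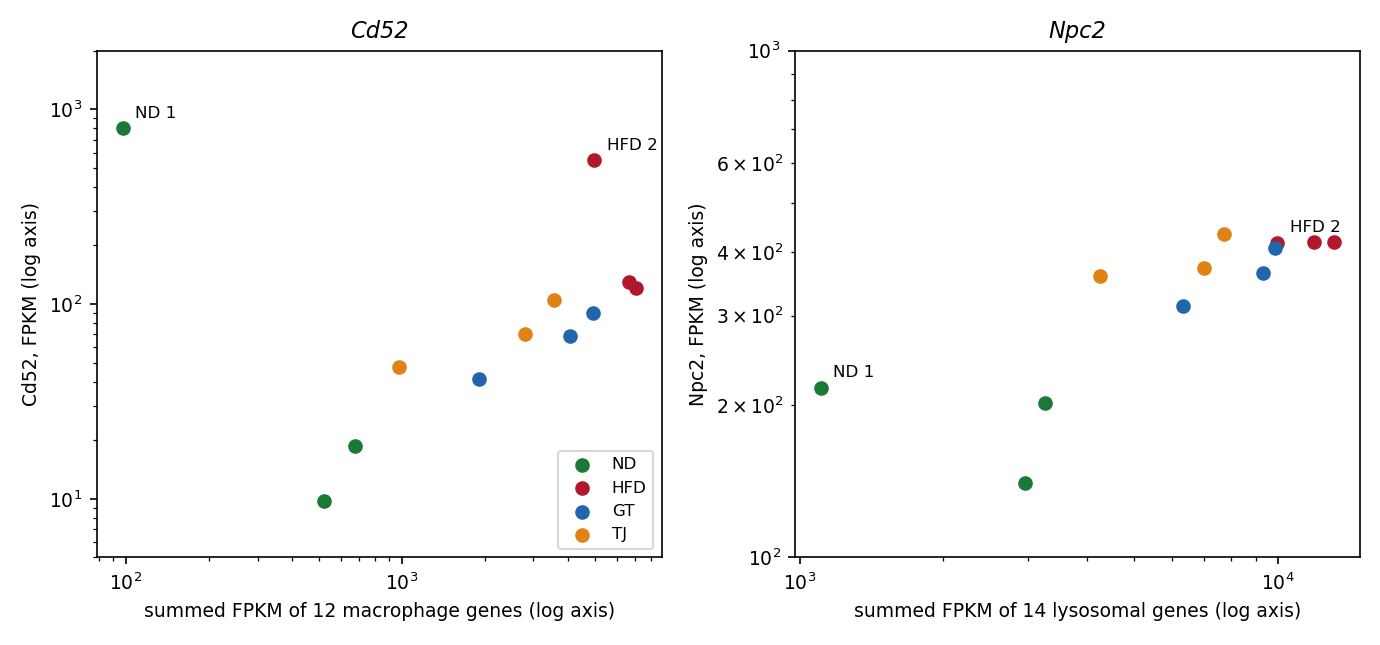
Left, Cd52 in FPKM against the summed FPKM of 12 macrophage genes, and right, Npc2 in FPKM against the summed FPKM of 14 lysosomal genes, both on log axes, with a point for each of the 12 libraries coloured by diet group. ND replicate 1 and HFD replicate 2 lie above the other points for Cd52 (798 and 549 FPKM), whereas for Npc2 HFD replicate 2 lies among the other HFD libraries.

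Between diet groups, the members were compared by whether the 3 libraries of each group overlapped. All 10 members averaged 1 FPKM or more in the ND and HFD libraries. Lcn8, Lcn9, Gpx5 and Lcn5 were lower in every HFD library than in every ND library, Npc2 was higher, and the other 5 overlapped. Among all 14430 genes at this level, the groups did not overlap in 5.89% with lower and in 20.5% with higher HFD values. Since the members were chosen on these values, nothing is read from their share. Without ND replicate 1, a choice made after seeing the data, the same 4 genes had lower HFD values, and Npc2, Cd52 and Crisp1 had higher ones. In that setting 19.2% of all tested genes did not overlap with lower and 28% with higher HFD values, and Lcn9 and Lcn5 no longer averaged 1 FPKM. Crisp1 averaged 1 FPKM there only through HFD replicate 2. Its other HFD values were 0.149 and 0.531 FPKM, against 0 and 0.0612 FPKM in ND replicates 2 and 3. Lcn8 and Gpx5 averaged 1 FPKM there only through the ND group. Lcn8 was then at 1.5 and 4.91 FPKM in the ND group and 0 in the HFD group, and Gpx5 at 4.14 and 4.91 FPKM against at most 0.268 FPKM. With HFD replicate 2 left out too, Adam7 and Defb20 also had lower HFD values and Ces5a alone overlapped, beside 24.1% of all tested genes lower and 30.2% higher. Of these 9 members, Lcn8, Gpx5, Cd52 and Npc2 averaged 1 FPKM there, the first pair only through the ND group. The lysosomal genes were higher in the HFD group too, where they summed to 9980 to 13118 FPKM. In ND replicates 1, 2 and 3 they summed to 1109, 3265 and 2961 FPKM. In the TJ group they summed to 4252 to 7724 FPKM, below the HFD group, whereas Npc2 overlapped it at 360 to 435 FPKM. The part of the lysosomal genes in the level of Npc2 was not tested.

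Over the GT and HFD libraries 5 members reached a mean of 1 FPKM, and Ces5a, Cd52 and Npc2 were lower in every GT library than in every HFD library. Non-overlap with lower GT values was found in 24.4% of all tested genes, and in 30.2% without HFD replicate 2. The lysosomal genes, for comparison with Npc2, summed to 6324 to 9891 FPKM in the GT group. Ces5a reached this mean only through HFD replicate 2, and its other HFD values of 0.190 and 0.172 FPKM correspond to about 6 and 5 fragments. Without HFD replicate 2, Cd52 was at 129 and 121 FPKM in the HFD group and at most 89.5 FPKM in the GT group. Over the TJ and HFD libraries 6 members reached this mean, and Cd52 was lower in every TJ library, beside 31.4% of all tested genes, or 34.2% without HFD replicate 2. The macrophage genes summed to 4989 to 7051 FPKM in the HFD group, 1909 to 4935 FPKM in the GT group and 975 to 3560 FPKM in the TJ group. Per 100 FPKM of them, Cd52 was at 1.69 to 2.16 FPKM in the GT group and 2.5 to 4.88 FPKM in the TJ group, against 1.94 and 1.72 FPKM in HFD replicates 1 and 3. Their part in the level of Cd52 was not tested. Crisp1 and Ces5a overlapped between these groups through HFD replicate 2. Without it, the 3 TJ values of Crisp1, 1.13 to 11.0 FPKM, lay above the 0.149 and 0.531 FPKM of the HFD group. The TJ values of Ces5a, 0.327 to 2.52 FPKM, likewise lay above 0.190 and 0.172 FPKM, but its mean of 0.890 FPKM was then under the filter and TJ replicate 3 rests on about 11 fragments. Crisp1 passed the filter there only through the TJ group, and 23.3% of all tested genes had higher values in every TJ library in this setting. With all libraries, no member was higher in every GT or TJ library than in every HFD library, which was the case for 12.3% and 20.1% of all tested genes.

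Other genes of the duct were set beside the members with a list of 41 epididymis genes that are no members, of which 40 were found in the table. The list was chosen with earlier results of these data known, so its counts are a description and nothing is read from its shares. It holds beta-defensins, cystatins, ribonuclease-like genes, further lipocalins and protease inhibitors. In ND replicate 1, 38 of the 40 genes reached 1 FPKM, and in HFD replicate 2, 18 did. The other libraries ranged from 1 gene in HFD replicate 3, GT replicates 2 and 3 and TJ replicate 3 to 13 genes in ND replicate 3. ND replicate 1 was the highest library for 36 of the 40 genes, as it was for 36.5% of all genes. It was at least 10 times every other library for 26 of them, against 6.37% of all genes. HFD replicate 2 was at least 10 times each of the 10 libraries other than ND replicate 1 for 13 of the 40 genes, against 0.518% of all genes. Only Rnase11 was at least 10 times higher in HFD replicate 2 than in every other library, with 2.26 FPKM against at most 0.214 FPKM.

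The genes of the list differed in their balance between ND replicate 1 and HFD replicate 2. In all, 21 reached 1 FPKM in ND replicate 1 and not in HFD replicate 2, and 17 reached it in both. In 26 genes ND replicate 1 was at least 10 times HFD replicate 2. In 12 that reached 1 FPKM in both, the libraries were within 10 times of each other. In Rnase11 HFD replicate 2 was at least 10 times ND replicate 1. Pate4, at 0.371 and 0.411 FPKM, reached 1 FPKM in neither library and was not classed. The first kind included Defb25, with 7415 FPKM in ND replicate 1 and 0 in HFD replicate 2, Defb15 with 5552 and 0.440 FPKM, and Defb48 with 3102 and 0.436 FPKM. Spag11b, a defensin-like gene, had 1891 and 0.452 FPKM, and its sequence is close to that of Spag11a, so that fragments may be shared between the pair. Cst11, a cystatin, had 1083 and 0 FPKM. Defb42 and Defb45 had 1013 and 950 FPKM in ND replicate 1 against 12.4 and 0 FPKM in HFD replicate 2, and Defb42 overlaps Defb30 on the opposite strand. Wfdc10, of the whey acidic protein inhibitors, had 1920 and 145 FPKM and overlaps Wfdc9 on the opposite strand. The second kind included Spink8, a serine protease inhibitor, with 1218 and 388 FPKM, Defb2 with 102 and 76.8 FPKM, Defb40 with 42.4 and 45.6 FPKM and Serpina1f with 95.7 and 84.4 FPKM.

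A few genes of the list kept a course of their own. Cst8, a cystatin made in the caput and also in germ cells, had 1753 FPKM in ND replicate 1, 34.3 FPKM in ND replicate 3, 14.5 FPKM in HFD replicate 1 and 0.182 FPKM in HFD replicate 2. Cst12 showed the same order, with 712, 7.51, 5.75 and 0 FPKM, while Cst11 was at 0 in HFD replicate 1 and at 0.839 FPKM in ND replicate 3. Adgrg2, a receptor of the efferent ducts and proximal epididymis, was highest in ND replicate 3 with 63.4 FPKM, followed by 15.1 FPKM in ND replicate 2 and 6.43 FPKM in ND replicate 1. The remaining libraries had 1.40 to 5.28 FPKM of Adgrg2.

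Groups were tested on this list with limma on log2(FPKM + 1) across all genes that averaged 1 FPKM or more, and a gene was called with an adjusted p-value under 0.05 and at least a 1.5-fold change. For HFD against ND, 37 genes of the list were tested and 0 were called, beside 1.77% of all tested genes, and 0 of all tested genes with the replicate number as a block (5 of the list and 2239 of all genes at an unadjusted p-value under 0.05). A single gene, Adgrg2, had an unadjusted p-value under 0.05, with a log2 difference of -2.26 (standard error 0.85, limma adjusted p = 0.388). Of the 37 genes, 36 were lower in the HFD group, with a median log2 difference of -2.35 against 0.07 for all tested genes. In 8 of the genes all libraries of a group were listed at 0. Without ND replicate 1 the median of the 19 genes tested was 1.30, against -0.02 for all genes, and 6 of them were lower in the HFD group. Genes enter this test through the library where they are high, so these counts and medians are a description only. Without HFD replicate 2 as well, each of the 7 genes left for the test had a lower HFD mean, and their median was -1.74 against -0.05 for all genes. In limma without ND replicate 1 alone, Adgrg2, Defb15 and Defb25 passed the threshold, all with lower HFD values, beside 4.34% of all tested genes that passed with lower values. This fit had no block by replicate number. Defb15 and Defb25 entered the test only through the ND group, so no support is taken from these calls. Defb15 was at 3.10 and 6.75 FPKM in ND replicates 2 and 3 and at 0 to 0.440 FPKM in the HFD group, and Defb25 at 2.51 and 4.72 FPKM against 0. With both libraries left out, 0 genes of the list were called in limma, and 3 had an unadjusted p-value under 0.05.

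For GT against HFD, 16 genes were tested in limma and 0 were called or had an unadjusted p-value under 0.05, beside 3.63% of all tested genes called. Their median log2 difference was -1.68, against -0.12 for all, and in 11 of the 16 all libraries of a group were listed at 0. For TJ against HFD, 17 genes were tested, and again 0 were called or had an unadjusted p-value under 0.05, beside 18.5% of all tested genes called. Here the median was -1.45, against -0.14, and 3 of the 17 had a group listed at 0 throughout. Without HFD replicate 2, only 3 and 6 genes of the list could be tested for GT and TJ. Most genes thus entered these tests through that library, so the counts and medians are a description only. Without it the medians were -1.36 for GT and 0.07 for TJ, against -0.11 and -0.12 for all genes, and 0 were called. These comparisons share the HFD libraries.

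Relatives of the members in the same gene families were looked at next. Of 13 lipocalin and related genes, members included, ND replicate 1 was highest for 10. Lcn6, Lcn10 and Lcn12 were at 312, 145 and 104 FPKM there and at most 4.56 FPKM in any other library, whereas Lcn4 was listed at 0 in all libraries. Ptgds, which makes prostaglandin D and is secreted into epididymal fluid, was at 1024 FPKM in ND replicate 1 and 263 FPKM in HFD replicate 2, with at most 27.6 FPKM elsewhere. Rbp4, the retinol carrier that adipocytes make, ran the other way, with 71.1 FPKM in ND replicate 1 and 172 to 772 FPKM in the rest. Lcn2, an iron-binding lipocalin of inflamed tissue, was at 1391 FPKM in ND replicate 1. It fell in the TJ group (log2 difference -2.45, limma adjusted p = 0.0196), from 24.0, 24.2 and 12.2 FPKM in the HFD libraries to 2.21, 2.12 and 4.03 FPKM. No gene passed this test with any single HFD library or TJ replicate 1 left out. Macrophage genes summed to 4989 to 7051 FPKM in the HFD group and 975 to 3560 FPKM in the TJ group. For 13 epithelial genes the sums were 6.11 to 70.4 and 1.85 to 7.43 FPKM. The part of these cells in the level of Lcn2 was not tested.

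Among the glutathione peroxidases, Gpx5 exceeded Gpx4 by 1.71-fold in ND replicate 1, although Gpx4, the selenoprotein of sperm and of all cells, was itself at 3717 FPKM there. Gpx3, the extracellular form, measured 427 FPKM in HFD replicate 2 and 104 and 97.7 FPKM in its group mates. Its ND values of 451, 438 and 388 FPKM lay as high, and TJ replicate 2 had 518 FPKM. Gpx6 was at 25.0 FPKM in ND replicate 1 and at most 2.14 FPKM elsewhere. In the CRISP family, Crisp4 shared both libraries with Crisp1, at 18.9 FPKM in ND replicate 1 and 3.98 FPKM in HFD replicate 2. Crisp2, the member of the family in germ cells, was at 448, 8.04 and 146 FPKM in the ND group and at 75.0, 3.02 and 2.15 FPKM in the HFD group. It was thus low in the library where Crisp1 was highest. Crisp3 did not exceed 0.0757 FPKM.

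Germ cell genes were high with the members in ND replicate 1 but not in HFD replicate 2. Prm1, the protamine that packs sperm DNA, was at 18708 FPKM in ND replicate 1, 502 FPKM in ND replicate 3 and 436 FPKM in HFD replicate 1. HFD replicate 2, with the highest level of Crisp1, had 3.71 FPKM of Prm1. HFD replicate 1 had all 4 proximal-type genes at 0. Prm1 was 2.94 times Gpx5 in ND replicate 1, 7.80 times in ND replicate 2 and 102 times in ND replicate 3. Summed over 20 germ cell genes, the level was 105976 FPKM in ND replicate 1, 3675 FPKM in ND replicate 3, 2393 FPKM in HFD replicate 1 and 70.6 FPKM in HFD replicate 2, with 19.9 to 211 FPKM in the rest. Genes of Leydig and Sertoli cells of the testis, led by Insl3, summed to 1604 FPKM in ND replicate 1, 52.8 FPKM in ND replicate 3, 25.3 FPKM in HFD replicate 1 and 6.67 FPKM in HFD replicate 2.

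**Figure D4:**
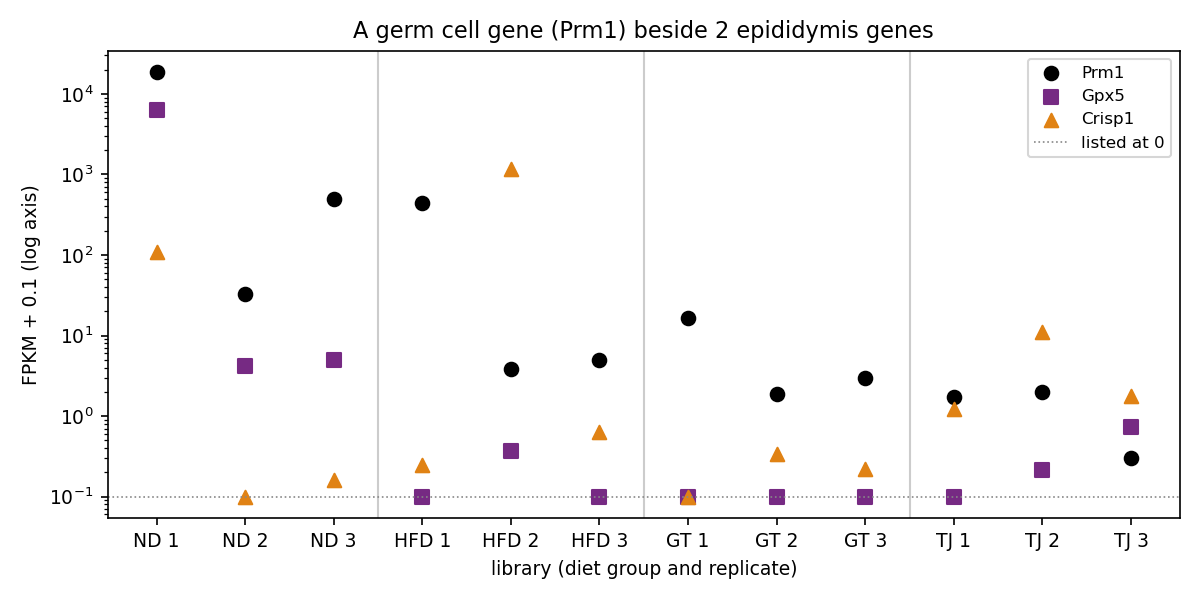
FPKM + 0.1 (log axis) of the germ cell gene Prm1, of Gpx5 and of Crisp1 in each of the 12 libraries, with the dotted line marking values listed at 0. All 3 are high in ND replicate 1, whereas HFD replicate 1 has Prm1 at 436 FPKM with Gpx5 at 0, and HFD replicate 2 has Crisp1 at 1172 FPKM with Prm1 at 3.71 FPKM.

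Markers of epithelium were highest in ND replicate 1, ND replicate 3 and HFD replicate 2, in this order. The summed level of 13 epithelial genes was 702 FPKM in ND replicate 1 and 70.4 FPKM in HFD replicate 2, but also 157 FPKM in ND replicate 3, and 1.85 to 21.7 FPKM in the other libraries. Cldn3, a tight junction protein, was at 327, 8.07 and 10.7 FPKM in ND replicate 1, ND replicate 3 and HFD replicate 2. Cdh16 was at 19.3, 20.9 and 1.67 FPKM in these libraries and at 2.45 FPKM in HFD replicate 1, where the proximal-type genes were at 0. Of 5 genes of clear cells, the acid-secreting cells of the duct, 4 reached 1 FPKM in ND replicate 1, 3 in HFD replicate 2 and 1 in ND replicate 3. Foxi1, their transcription factor, was at 3.72 FPKM in ND replicate 1, 2.0 FPKM in HFD replicate 2 and at most 0.0548 FPKM elsewhere. Basal cell genes summed to 29.7 FPKM in ND replicate 1, 4.51 FPKM in HFD replicate 2 and at most 1.90 FPKM in the rest.

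Genes of the seminal vesicle and prostate were low. Of the 7 seminal vesicle genes, Svs5 reached 10.2 FPKM in ND replicate 1, and their sum was 11.8 FPKM there and at most 2.17 FPKM elsewhere. The 5 prostate genes measured came to at most 0.556 FPKM in any library. Smooth muscle genes summed to 622 FPKM in ND replicate 1, of which Actg2 made up 491 FPKM, against 152 to 344 FPKM in the other 11 libraries. Mesothelial genes, which mark the surface of the fat pad, were at 27.4 FPKM in ND replicate 1 and 9.84 FPKM in HFD replicate 2, within the 4.55 to 36.4 FPKM of the other libraries. The part of any of these tissues in the levels of the members was not tested.

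**Figure D5:**
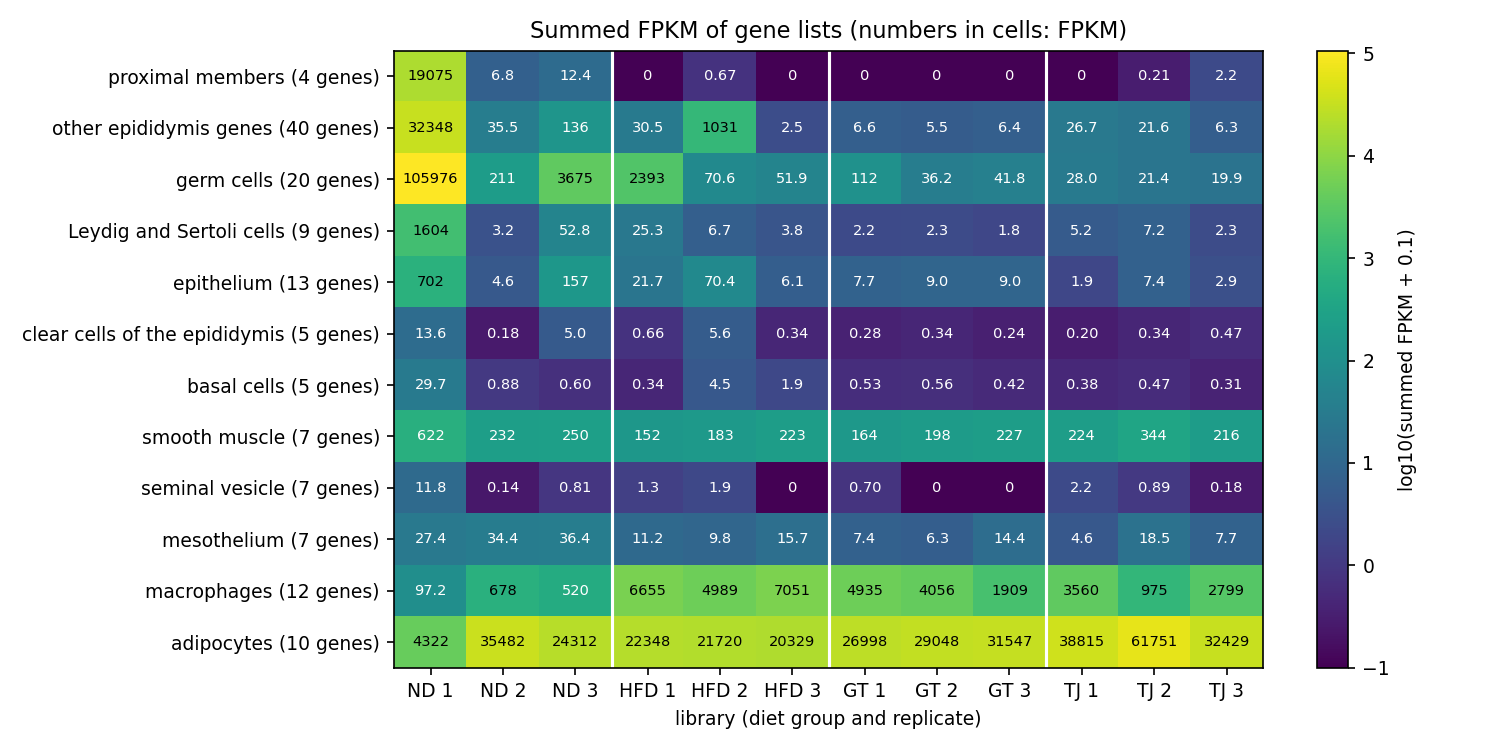
Summed FPKM of 12 gene lists (rows) in each of the 12 libraries (columns, 3 per diet group), printed in each cell, with the colour giving log10(summed FPKM + 0.1). ND replicate 1 is bright for the proximal-type members, the other epididymis genes, the germ cells and the Leydig and Sertoli cells and dark for macrophages (97.2 FPKM), whereas HFD replicate 2 is bright for the other epididymis genes (1031 FPKM) with adipocyte genes at 21720 FPKM.

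Genes with the most similar course were ranked by the correlation of log2(FPKM + 1) over the 12 libraries, which is given as a description, since ND replicate 1 sets most of it. Among 16001 named genes, 2163 had a Pearson r of at least 0.9 with the mean of the 4 proximal-type genes. The closest included Olfr199, Cst11, Teddm1a, Gm5108, Spaca5, Defb25, Tsga13, Tmem200a and Defb48, with r from 0.996 to 0.998. Cst11, Teddm1a, Defb25 and Defb48 are epididymis genes and had 1083 to 7415 FPKM in ND replicate 1, whereas Olfr199 reached only 1.08 FPKM. Lcn5 had an r of 0.960 with the same mean, while Adam7, Ces5a, Crisp1 and Cd52 had 0.734, 0.633, 0.427 and 0.471 and Npc2 had -0.49. Without ND replicate 1, 89 of 14964 genes had an r of at least 0.9 with that mean over 11 libraries. Lcn5 then had 0.274, Adam7 0.0121, Ces5a -0.11, Crisp1 -0.16, Cd52 -0.71 and Npc2 -0.93.

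With Crisp1, 48 genes had an r of at least 0.9, which became 83 without ND replicate 1 and 705 without HFD replicate 2. The 5 closest were Acbd7, Serpina16, Defb11, Slc46a2 and Cwh43, with r from 0.964 to 0.978, and Serpina16 was at 137 FPKM in HFD replicate 2 and 41.3 FPKM in ND replicate 1. For Ces5a they were Serpina1f, Defb26, Wfdc16, Spink8 and Defb11 (r from 0.99 to 0.996), and for Adam7 they were Myo3b, Wfdc15b, Smbd1, Trpv6 and Defb43 (0.994 to 0.996). Cd52 came closest to Npy, a neuropeptide, with an r of 0.935, and then to Hebp2, Apoc4, Calr and Fosl1. Npy was at 99.3 FPKM in ND replicate 1, 114 FPKM in HFD replicate 2 and at most 5.5 FPKM elsewhere. Npc2 had a different company, led by Ftl1, the light chain of ferritin, with an r of 0.957, and followed by Cfl1, Rhog, Fxyd5 and Cstb, whose levels in ND replicate 1 all lay within the range of the other libraries. Ftl1 was at 910 FPKM there and at 621 to 2558 FPKM in the 10 libraries without HFD replicate 2.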

How the data were processed

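RNA was extracted from eWAT of 12 mice and libraries were made with the Illumina TruSeq RNA kit. Per the labels, reads were processed with CASAVA 1.8.2, STAR 2.4.0 and Cufflinks 2.1.1, and the paper's methods name another STAR version and a human genome, while all 23474 identifiers are mouse identifiers. The deposited values are FPKM, which the authors computed after masking noncoding regions and correcting for multireads and for fragment bias. Such correction can shift fragments among near-identical genes, such as beta-defensins. Counts were not used here.

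Symbols and GRCm38 coordinates came from GENCODE M21, which named 22671 identifiers. Groups were taken from the labels. Levels of the members were described per library, with 1 FPKM as the mark of presence. The test between groups was limma 3.58.1 under R 4.3.3 (lmFit, then eBayes with trend) on log2(FPKM + 1) over the libraries of the groups compared, for genes that averaged 1 FPKM or more, with Benjamini-Hochberg adjustment over all genes tested, and the script was tested on simulated data. Deviations from the group means of same-numbered ND and HFD libraries correlated at 0.547, 0.342 and 0.122, each over 0.1, so the numbers were taken to pair them, although no source names what a number shares and HFD replicate 3 correlated more closely with ND replicate 2 (0.626). The block by number left 0 differentially expressed genes for HFD against ND, where the fit without it gave 255. Python 3.11.15, pandas 2.3.3 and numpy 2.4.6 served for all other steps.

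The members and gene lists were chosen with earlier results of these data known. Named were all members, listed epididymis genes that were called or among the 10 highest, the closest genes by correlation, family relatives and extreme members of marker lists, and other genes were named after their values were seen. Alternatives were other pseudocounts, filters, scalings, samples in the fit, the block, eBayes without trend and each library left out.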

Additional observations from a re-analysis of the deposited data

How the results depend on the processing

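All 4 proximal-type genes reached 1 FPKM in 1 library. At least 2 of them did so in 3 libraries, and with a threshold of 0.1 FPKM all 4 did in 4 libraries, while a threshold of 10 FPKM and both scalings left 1. The counts of differentially expressed genes (DEGs) moved more. For HFD against ND, 255 became 126 and 111 with pseudocounts of 0.1 and 0.01, 1131 with all 12 libraries in the fit, 0 with the replicate block and 0 to 2098 with a library left out. The highest count was without ND replicate 1, the counts of 0 came without each HFD library in turn (843 to 982 genes with an unadjusted p-value under 0.05, limma), and 24 and 23 were left without ND replicates 2 and 3. Leaving out both ND replicate 1 and HFD replicate 2, a choice made after seeing the data, gave 875. For GT against HFD, 464 became 5 without a filter, 1 with all libraries, 5 with the replicate block, 67 without the trend and 4 to 1107 with a library left out, the most without GT replicate 1 and at most 66 without any other. For TJ against HFD, 2366 became 382 without a filter, 1 with all libraries, 1198 with the replicate block and 0 to 3412 with a library left out, with 0 without each HFD library or TJ replicate 1 (3732 to 4735 at an unadjusted p-value under 0.05). The cause was not tested. Same-numbered libraries share only a number in these 2 comparisons, with correlations of their deviations of 0.198, 0.0534 and -0.0698 for GT and -0.0287, -0.0514 and 0.227 for TJ. Scaling moved the split of higher against lower DEGs from 233 and 231 to 360 and 137 (median of ratios) or 405 and 162 (quantile) for GT against HFD, and from 949 and 1417 to 1174 and 1170 or 1543 and 1151 for TJ against HFD. Of the other epididymis genes, 0 were called for HFD against ND in all settings except without ND replicate 1, where 3 were (0 to 3 over the libraries left out), and 0 for GT and TJ against HFD in all settings, the block included. Median-of-ratios scaling also moved the median log2 difference of all genes for HFD against ND from 0.07 to -0.12. Precision at low levels is limited by depth, since values under 1 FPKM rest on few fragments.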

Other observations

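Members and lists included, 69 genes were at least 10 times higher in both ND replicate 1 and HFD replicate 2 than in each of the other 10 libraries, or 0.426% of the 16210 genes with 1 FPKM or more in some library. The following were named after their values were seen. Defb28 was at 2055 and 265 FPKM in ND replicate 1 and HFD replicate 2 and at most 10.5 FPKM elsewhere. Spink10 was at 43.0 and 65.2 FPKM, and Ceacam10 at 58.4 and 49.7 FPKM. Several whey acidic protein inhibitors shared this course, among them Wfdc13 at 185 and 64.0 FPKM, Wfdc15b at 206 and 75.7 FPKM and Wfdc16 at 44.2 and 72.5 FPKM.

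Besides Crisp1, 6 genes were at least 10 times higher in HFD replicate 2 than in all other libraries, which held for 0.0432% of the genes. The most abundant was Ltf, the iron-binding lactoferrin of secretions, at 77.7 FPKM against 2.90 FPKM in ND replicate 1 and at most 0.287 FPKM elsewhere. Abcb5, a transporter, was at 23.3 FPKM against 1.02 FPKM in ND replicate 1. Rnase11, Adgrg7, Svs1 and 9230019H11Rik were at 1.41 to 2.26 FPKM. In ND replicate 1, 1033 genes (6.37%) were at least 10 times higher than in all other libraries, germ cell genes included.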
